A study of Mus musculus with 32 samples.

Results

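The smooth muscle contractile genes described here are 10 genes chosen by name for their part in the smooth muscle contractile apparatus: Acta2, Actg2, Cnn1, Tagln, Myl9, Myh11, Mylk, Des, Lmod1 and Smtn. The choice was made with earlier results of these data known. All 10 were found among the 20612 genes listed in any library, by matching each symbol to its Entrez identifier. RNA was sequenced from the mouse embryonic stem cell (ESC) line J1, of strain 129S4/SvJae, and from cultures grown from it. The agents were the bisphenols A, F and S (BPA, BPF and BPS), given at 100 nM, and the control cultures had only the solvent, dimethyl sulfoxide (DMSO). The 8 stages were day 0 ESCs, aggregates called embryoid bodies (EBs) at days 4, 6, 9, 12 and 20 of global differentiation, EBs at day 8 that had been in retinoic acid (RA) for 4 days, and monolayer neural progenitor cultures (NPCs) at day 10. Each of the 32 combinations of stage and treatment was 1 library, every culture came from the same line, and the labels name no replicate.

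Smooth muscle shortens when myosin filaments pull on actin filaments that are anchored in dense bodies. The trigger is a phosphate that myosin light chain kinase puts on the regulatory light chain of myosin, and calponin and smoothelin sit on the actin filaments. Most of these genes are known targets of serum response factor (SRF), which binds a DNA element called the CArG box and works in smooth muscle together with the coactivator myocardin. The same genes, Acta2 and Tagln above all, are also expressed by other cells of mesenchymal kind and in the early embryonic heart, and do not by themselves mark smooth muscle cells.

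Because SRF acts through the CArG box, the promoters were read for it. The RefSeq promoter table, on build GRCm38.p6, held 1 window of 300 bases for each of 7 of the 10 genes (Acta2, Cnn1, Des, Lmod1, Myl9, Mylk and Smtn). The CArG box reads the same on both strands, and it was searched in its strict form and in a looser form that allows at most 1 G or C in its inner stretch; the looser form includes the strict one. The strict form was in 1 of the 7 windows (Myl9), against 1.63% of all 32851 windows of that length, and the looser form in 2 (Acta2 and Myl9), against 9.98%. For the genes with a match, Acta2 and Myl9, it is printed in capitals. Both differed between bisphenol and DMSO libraries at EB days 6, 12 and 20 and in NPCs. Cnn1, Lmod1, Mylk and Smtn, with no match in their windows, also differed at EB days 12 and 20. Mylk differed at EB days 6 and 9 as well, and Des, also with no match, differed at EB day 20. Any link between a match and these differences was not tested. For Acta2, whose window overlaps a longer annotated transcript, each match is given with 10 bases on either side (minus strand, at chr19:34255438-34255467 and chr19:34255388-34255417). For Myl9 the stretch before the annotated gene is given (plus strand, chr2:156775214-156775407).
Acta2, first match: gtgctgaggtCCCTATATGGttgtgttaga
Acta2, second match: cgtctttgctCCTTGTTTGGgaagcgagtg
Myl9: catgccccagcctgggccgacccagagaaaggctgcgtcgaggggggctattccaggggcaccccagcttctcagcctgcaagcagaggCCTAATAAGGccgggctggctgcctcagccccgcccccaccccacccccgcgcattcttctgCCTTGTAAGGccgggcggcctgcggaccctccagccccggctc
In Myl9 the first match, CCTAATAAGG, is the strict form. A match is a description of letters in these windows, and factor binding was not measured.

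Library totals lay between 9574833 and 11070149 expected counts, and all 10 genes were among the 15632 tested. Levels are given in FPKM, fragments per length of transcript and depth of library, as the authors deposited them, and changes as log2 values ± SE from edgeR. The labels were checked with marker lists. The summed level of 12 pluripotency markers was 66.6 to 89 FPKM in NPC libraries, against 5090 to 5440 FPKM in ESC libraries. The summed level of 12 neuronal markers was 3190 to 3730 FPKM in NPC libraries, against 214 to 229 FPKM in ESC libraries. With 1 library per stage and treatment, p-values reflect only how these libraries scatter, and whatever set the lone DMSO library of a stage apart cannot be told apart from the absence of bisphenol. In such mixed cultures, more cells of a type and more RNA per cell cannot be told apart either.

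In ESCs Smtn and Des were the highest of the 10 genes. Smtn (smoothelin) averaged 19.5 ± 1.04 FPKM and Des (desmin, the intermediate filament of muscle) 11.8 ± 0.723 FPKM (SD, n = 4 libraries at each stage, here and below). Acta2, the actin of vascular smooth muscle, averaged 0.475 ± 0.0742 FPKM, and Actg2, the actin of visceral smooth muscle, was listed in only 1 of the 4 ESC libraries, at 0.07 FPKM. The remaining 6 genes averaged between 0.015 FPKM (Myh11, smooth muscle myosin heavy chain) and 3.37 FPKM (Myl9, the regulatory light chain).

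At EB day 4 most of the genes were high in all 4 libraries, and these libraries were close to each other. Tagln (transgelin, an actin-binding protein) stood first at 271, 268 and 294 FPKM with BPA, BPF and BPS, against 284 FPKM with DMSO. Acta2 was at 137, 139 and 132 FPKM with the bisphenols, against 155 FPKM with DMSO. Cnn1 (calponin) was at 45.5, 48.5 and 49.4 FPKM with the bisphenols, against 49.2 FPKM with DMSO, its highest stage. The order of mean levels was Tagln, Acta2, Myl9, Cnn1, Smtn, Des, Lmod1 (leiomodin, which nucleates actin filaments), Myh11, Actg2 and Mylk (myosin light chain kinase). Myl9 at 62.3 ± 4.34 and Cnn1 at 48.1 ± 1.82 FPKM did not overlap, and the highest library of Smtn (44.6 FPKM) came close to the lowest of Cnn1 (45.5 FPKM). Actg2 (0.128 ± 0.0723 FPKM), Mylk (0.0625 ± 0.0222 FPKM) and Myh11 (0.278 ± 0.0236 FPKM) were still low, so that the contractile set of day 4 was high in Acta2, Tagln and Cnn1 with little of the kinase and the smooth muscle myosin.

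**Figure D1:**
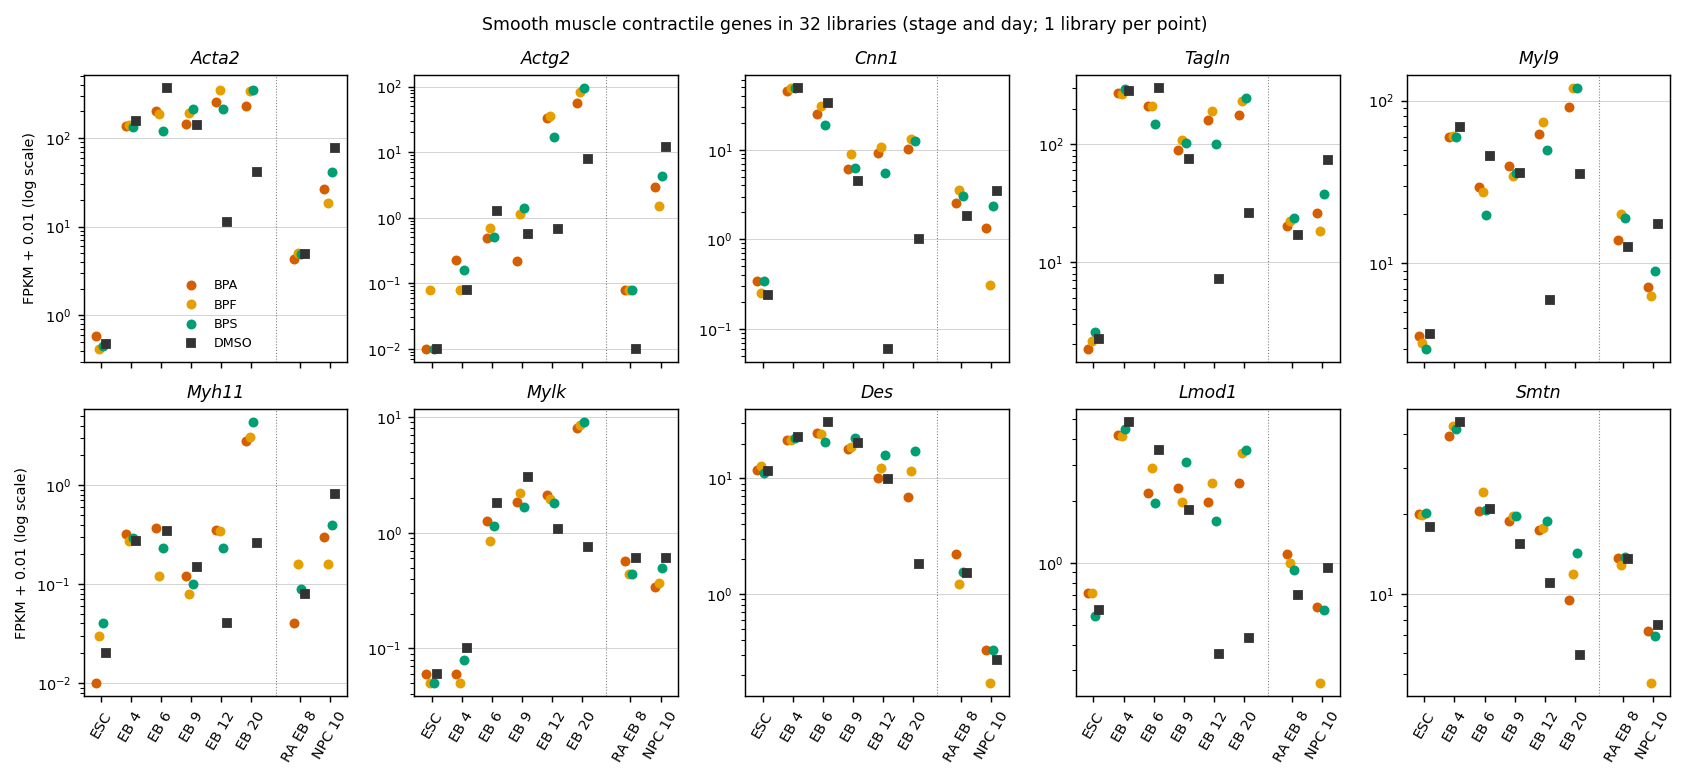
FPKM plus 0.01 on a log axis for each of the 10 genes at the 8 stages, with 1 point per library and colours for treatment. Acta2, Tagln and Cnn1 are high at EB days 4 and 6, and Cnn1 is lower from EB day 9. At EB day 12 Actg2 is high in the bisphenol libraries only. At EB days 12 and 20 the DMSO point is the lowest of the 4 for each gene.

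The genes reached their highest stage mean at different times. Lmod1, Tagln, Cnn1 and Smtn did so at EB day 4, Des at EB day 6 (25 ± 4.23 FPKM) and Acta2, Actg2, Myl9, Myh11 and Mylk at EB day 20. Among the DMSO libraries alone the course was another one. There Myl9 was highest at EB day 4, Acta2 and Tagln at EB day 6, Mylk at EB day 9, and Actg2 and Myh11 in NPCs. Lmod1, Cnn1, Smtn and Des had the same highest stage with DMSO. Actg2 averaged 0.73 ± 0.366, 0.82 ± 0.534, 21.4 ± 16.1 and 61.1 ± 39.2 FPKM at EB days 6, 9, 12 and 20. Mylk averaged 1.25 ± 0.405, 2.18 ± 0.619, 1.73 ± 0.47 and 6.61 ± 3.94 FPKM at the same days, and Myh11 0.255 ± 0.114, 0.103 ± 0.0299, 0.23 ± 0.144 and 2.6 ± 1.71 FPKM. At days 12 and 20 the SDs of Acta2, Actg2, Cnn1, Tagln and Myh11 were above 0.5 of the mean, with the DMSO library far below the others, so stage means there mix unlike libraries.

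Stages were compared over their 4 libraries, with a call at an adjusted p under 0.05 (edgeR quasi-likelihood test, Benjamini-Hochberg over all genes) and an absolute log2 change of 1 or more. At EB day 4 against ESCs, 7 of the 10 genes were higher and none was lower, with a median log2 change of 3.50 over the 10; of all genes tested 14.4% were called higher. Mylk (0.57 ± 1.15, adjusted p = 0.68) and Des (0.91 ± 0.28, adjusted p = 0.0054) missed the call, and Actg2 rested on 7 counts over the EB day 4 libraries against 1 over the ESC libraries, a ratio of 7.29 with a 95% counting interval of 0.936 to 328. At EB day 6 against day 4, Mylk was higher (4.28 ± 0.65, adjusted p = 2.9e-06) and Myl9 lower (-1.06 ± 0.40, adjusted p = 0.028), where 10.8% of all genes were higher and 8.75% lower. At EB day 9 against day 6, Cnn1 (-2.20 ± 0.48, adjusted p = 4e-04) and Tagln (-1.33 ± 0.53, adjusted p = 0.037) were lower, where 3.97% of all genes were lower. Of these 4 calls, those of Myl9 and Tagln were lost without the BPA, BPF or BPS libraries and with limma, and that of Tagln also with DESeq2 (adjusted p = 0.052).

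At EB day 12 against day 9, Actg2 was the only gene of the 10 called (4.54 ± 0.82, adjusted p = 6.4e-05; 7.56% of all genes were higher). With DMSO, Actg2 was at 0.56 FPKM at day 9 and 0.67 FPKM at day 12, so its rise was in the bisphenol libraries. Without the DMSO libraries Myh11 was called as well, at 1.66, and Actg2 was at 4.92. At EB day 20 against day 12, Myh11 (3.34 ± 0.56, adjusted p = 7.5e-06), Mylk (1.80 ± 0.39, adjusted p = 0.00021) and Actg2 (1.39 ± 0.57, adjusted p = 0.032) were higher, where 17.6% of all genes were higher. For Mylk the rise was in the bisphenol libraries only, since with DMSO it was at 1.06 FPKM at day 12 and 0.74 FPKM at day 20. Actg2 was not called at this step with DESeq2 (adjusted p = 0.14) or without the BPA, BPF or BPS libraries. Acta2 had log2 changes of 0.21 ± 0.56 and 0.09 ± 0.56 over these steps (adjusted p = 0.80 and 0.89). The ratio of Acta2 to Actg2, both per length, was 7.84 to 12.6 in the bisphenol libraries at EB day 12. At EB day 20 it was 3.61 to 4.1 in the bisphenol libraries and 5.25 in the DMSO library. For EB days 4, 6 and 9, and for the DMSO library of day 12, no ratio is given. There Actg2 rested on only 1 to 19 counts per library. The actins are similar in sequence, and how the authors' estimated counts divided reads between them and their striated relatives Actc1 and Acta1 cannot be checked from the files.

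**Figure D2:**
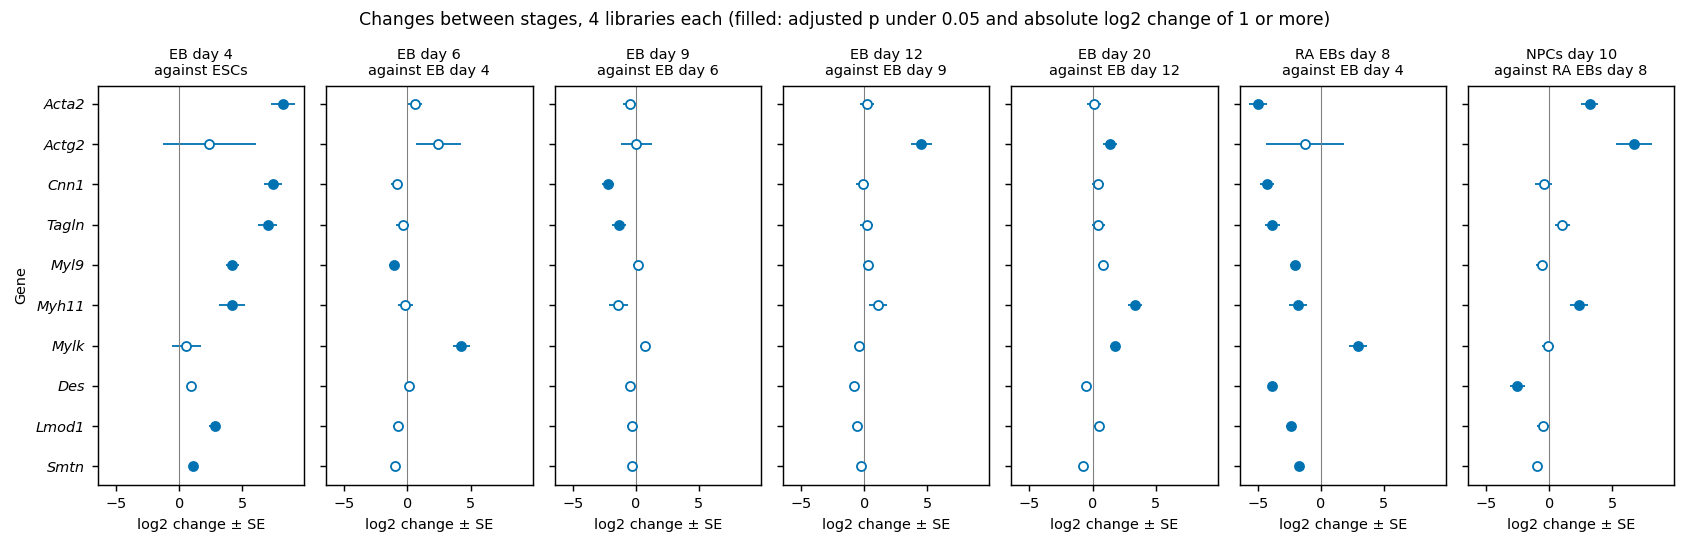
Log2 change ± SE of each gene for changes between stages, 4 libraries per stage, with filled points for genes past the threshold. The points of EB day 4 against ESCs lie to the right, those of RA EBs day 8 against EB day 4 mostly to the left.

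In the neural branch most of the genes were low, but 3 were higher in the NPC cultures than in RA EBs. In RA EBs of day 8 against EBs of day 4, 8 of the 10 were lower and Mylk was higher (2.91 ± 0.72, adjusted p = 0.00076), with a median log2 change of -2.21; 15.7% of all genes were lower and 19% higher. Acta2 was at 4.34, 4.99 and 4.87 FPKM with BPA, BPF and BPS, and 4.97 FPKM with DMSO, in RA EBs, with a log2 change of -4.99 ± 0.71 (adjusted p = 4.4e-07). Des fell by 3.87 ± 0.34 and Cnn1 by 4.27 ± 0.53 on the log2 scale (adjusted p = 7.1e-11 and 5.2e-08). In RA EBs against the mean of global EBs of days 6 and 9, 7 of the 10 were lower and none higher, where 10.3% of all genes were lower. Thus the level was below that of global EBs of about the same age and not only below that of day 4.

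In NPCs of day 10 against RA EBs, Acta2 (3.20 ± 0.69, adjusted p = 0.00015) and Myh11 (2.36 ± 0.71, adjusted p = 0.0044) were higher and Des was lower (-2.52 ± 0.59, adjusted p = 0.00045); 18.1% of all genes were higher and 17.4% lower. Actg2 had 275 counts over the NPC libraries against 3 over the RA EB libraries, a ratio of 98.7 with a counting interval of 33.4 to 482, and was called higher too (adjusted p = 0.00014). Without the DMSO libraries 8 of the 10 passed, 3 higher and 5 lower, among them Myl9 (-1.21) and Smtn (-1.09). In NPCs against EBs of days 9 and 12, averaged, 8 of the 10 were lower and Myh11 was higher (1.54 ± 0.55, adjusted p = 0.013), where 22.4% of all genes were lower and 16.4% higher. The call of Myh11 was lost without the DMSO libraries (0.84), and those of Tagln and Cnn1 without the BPA or BPF libraries. Des was furthest down (-5.72 ± 0.44, adjusted p = 2.7e-12), at 0.265 ± 0.0755 FPKM in NPCs. So the NPC cultures held Acta2 and Tagln at 41.1 ± 26.2 and 38.7 ± 24.1 FPKM with very little desmin. Myh11, though called higher, averaged only 0.407 ± 0.28 FPKM there.

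The most calls between bisphenol and DMSO libraries were at EB days 12 and 20, where all 10 genes were higher in each bisphenol library than in the DMSO library of the stage. At EB day 12, Acta2 was at 256, 352 and 211 FPKM with BPA, BPF and BPS, against 11.3 FPKM with DMSO. Tagln was at 159, 191 and 99.9 FPKM with the bisphenols, against 7.19 FPKM with DMSO. Actg2 was at 32.7, 35.5 and 16.8 FPKM with the bisphenols, against 0.67 FPKM with DMSO. For these genes the lowest bisphenol library, that with BPS, was more than 10 times the DMSO library. Myl9 was at 62.1, 74.3 and 49.7 FPKM with the bisphenols, against 5.92 FPKM with DMSO. Cnn1 was at 9.24, 10.6 and 5.52 FPKM with the bisphenols, against 0.05 FPKM with DMSO, which was a single count. Des and Mylk were much closer: Des was at 10.1, 12.2 and 15.9 FPKM with the bisphenols, against 9.82 FPKM with DMSO, and Mylk at 2.13, 1.95 and 1.8 FPKM, against 1.06 FPKM with DMSO.

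In the test at EB day 12, in which the lone DMSO library is assumed to vary like the others, 9 of the 10 genes were higher (adjusted p under 0.05, here with no threshold on the change) and none lower, against 10.1% of all genes higher and 8.79% lower. The median log2 change of the 10 was 3.27, against -0.05 over all genes. Values were 4.56 ± 0.41 for Acta2 (adjusted p = 1.1e-08), 4.34 ± 0.39 for Tagln (1.1e-08), 5.35 ± 0.61 for Actg2 (5.9e-07) and 3.34 ± 0.29 for Myl9 (5.4e-09). Lmod1 (2.47 ± 0.42), Mylk (0.85 ± 0.22) and Smtn (0.66 ± 0.16) passed with smaller changes, and Des did not (0.33 ± 0.28, adjusted p = 0.47). Cnn1 had 514 counts over the bisphenol libraries against 1, a ratio of 171 per library with a counting interval of 30.5 to 6750, and Myh11 60 counts against 2, a ratio of 9.96 with an interval of 2.64 to 84.1. That all 10 lay above DMSO in each bisphenol library is read against 32.8% of all genes averaging at least 1 FPKM that did so at this stage. Of the 10, Myh11 averaged less than 1 FPKM there.

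At EB day 20 all 10 genes were again higher with the bisphenols, and for each of them the BPA library was now the lowest of the bisphenol libraries. Acta2 was at 229, 340 and 349 FPKM with BPA, BPF and BPS, against 41 FPKM with DMSO. Actg2 was at 56.8, 83 and 96.7 FPKM with the bisphenols, against 7.8 FPKM with DMSO. Mylk was at 7.98, 8.63 and 9.09 FPKM with the bisphenols, against 0.74 FPKM with DMSO. For Mylk the bisphenol libraries lay close together and far above DMSO. Myh11 was at 2.76, 3.06 and 4.34 FPKM with the bisphenols, against 0.25 FPKM with DMSO, and Des at 6.83, 11.6 and 17.2 FPKM, against 1.8 FPKM with DMSO. All 10 genes were called higher (9.14% of all genes were), with a median log2 change of 2.93 against -0.06 over all genes. The changes ran from 0.94 ± 0.18 (Smtn, adjusted p = 0.00056) to 3.69 ± 0.51 (Myh11, adjusted p = 9.7e-06), with 3.47 ± 0.24 for Mylk (5.9e-11), 2.84 ± 0.36 for Acta2 (2.1e-06) and 3.28 ± 0.41 for Actg2 (2.1e-06). All 10 lay above DMSO in each bisphenol library, as did 32.9% of the genes at 1 FPKM or above.

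**Figure D3:**
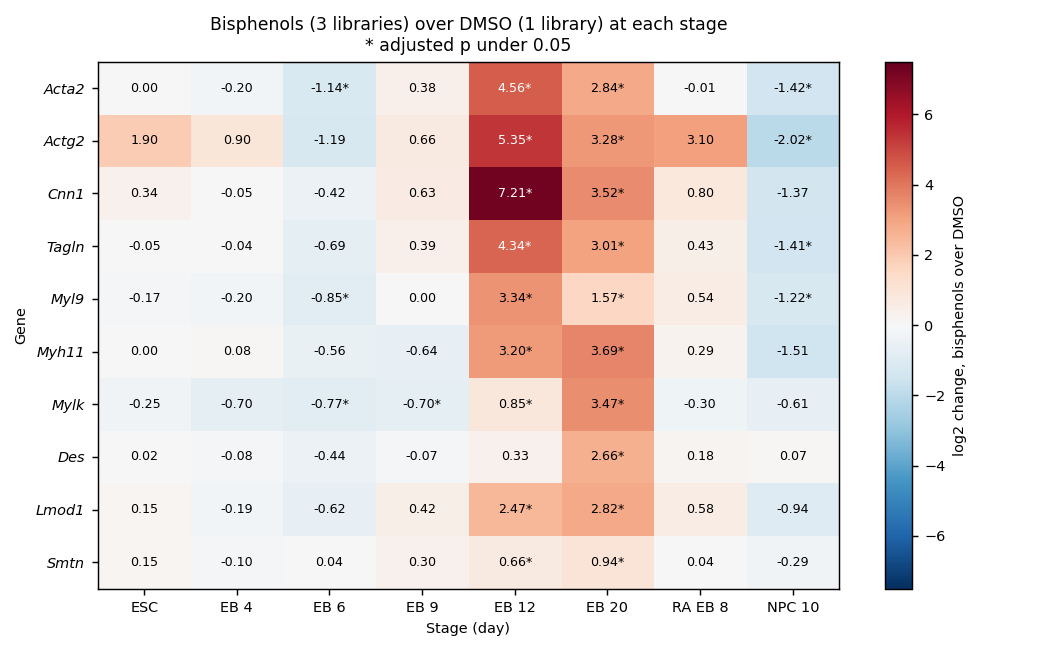
Log2 change of the bisphenol libraries over the DMSO library for each gene (rows) at each stage (columns), with a star where the adjusted p was under 0.05. The columns of EB days 12 and 20 are positive, those of EB day 6 and NPCs day 10 mostly negative.

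At EB day 6 the direction was the opposite. Acta2 was at 203, 186 and 121 FPKM with BPA, BPF and BPS, against 371 FPKM with DMSO, the highest Acta2 value of the 32 libraries. Tagln was at 210, 211 and 150 FPKM with the bisphenols, against 302 FPKM with DMSO. Myl9 was at 29.5, 27.6 and 19.8 FPKM with the bisphenols, against 45.5 FPKM with DMSO. The BPS library was the lowest of the 4 for all 3 genes. Of the 10 genes 3 were lower, Acta2 (-1.14 ± 0.27, adjusted p = 0.018), Myl9 (-0.85 ± 0.20, adjusted p = 0.019) and Mylk (-0.77 ± 0.20, adjusted p = 0.035), against 1% of all genes, and none was higher (1.55% of all genes). Tagln missed the threshold (-0.69 ± 0.24, adjusted p = 0.17), and 8 of the 10 lay below DMSO in each bisphenol library, among them Actg2, which averaged under 1 FPKM. Of the members averaging 1 FPKM or more, all but Smtn lay below, as did 27.7% of all genes at that level. These calls were fragile, since none was left without the BPF library and 1 without the BPS library, and DESeq2 made 1 and limma none.

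At EB day 9 the libraries were mixed. Acta2 was at 145, 191 and 214 FPKM with BPA, BPF and BPS, against 139 FPKM with DMSO (0.38 ± 0.30, adjusted p = 0.54). Mylk was at 1.82, 2.21 and 1.65 FPKM with the bisphenols, against 3.04 FPKM with DMSO, and was the only gene of the 10 called (-0.70 ± 0.18, adjusted p = 0.016; 3.48% of all genes were lower). Without the BPS library, and with DESeq2, Mylk was not called. The summed FPKM of the 10 genes was 810, 296, 47.3 and 120 at EB days 6, 9, 12 and 20 with DMSO. With the bisphenols the sum lay at 354 to 516, 320 to 407, 422 to 698 and 593 to 872 at these days. The change of sign between days 6 and 12 was tested as a comparison added after the values were seen, and the bisphenol effect at day 12 minus that at day 6 passed for 8 of the 10 (4.04% of all genes), at 5.70 ± 0.48 for Acta2 (adjusted p = 1.4e-08) and 5.03 ± 0.46 for Tagln (adjusted p = 3.2e-08). Des (0.77 ± 0.37) and Smtn (0.62 ± 0.21) did not pass.

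**Figure D4:**
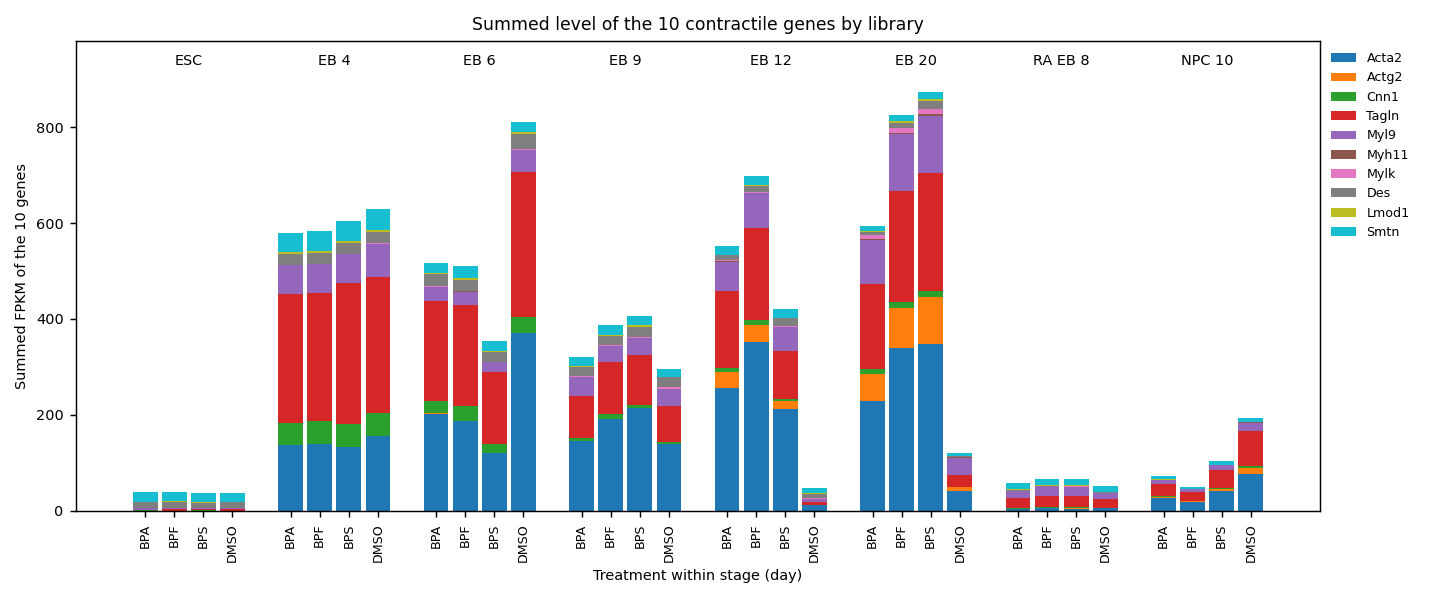
Summed FPKM of the 10 genes in each library, stacked by gene, on an axis from 0. With DMSO the sum is 47.3 at EB day 12 and 120 at EB day 20, against 422 to 698 and 593 to 872 with the bisphenols.

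In NPCs of day 10 the bisphenol libraries were the lower ones. Acta2 was at 26.5, 18.6 and 41.5 FPKM with BPA, BPF and BPS, against 77.7 FPKM with DMSO. Tagln was at 26.1, 18.2 and 37.8 FPKM with the bisphenols, against 72.8 FPKM with DMSO. Actg2 was at 2.94, 1.51 and 4.3 FPKM with the bisphenols, against 11.9 FPKM with DMSO. In each case BPF was lowest and BPS nearest to DMSO, without overlap. Of the 10 genes 4 were lower, Actg2 (-2.02 ± 0.41, adjusted p = 0.0042), Acta2 (-1.42 ± 0.29, adjusted p = 0.0051), Tagln (-1.41 ± 0.27, adjusted p = 0.0028) and Myl9 (-1.22 ± 0.26, adjusted p = 0.0083), against 1.94% of all genes, and none was higher (0.313% of all genes). The median log2 change of the 10 was -1.30, and 9 of the 10, all but Des, lay below DMSO in each bisphenol library. Myh11, Mylk and Lmod1 were among the 9 but averaged under 1 FPKM. The 6 that averaged 1 FPKM or more all lay below, as did 23.2% of all genes at that level. None of the 4 was called without the BPF library. The effect in NPCs minus that at EB day 20, added after the values were seen, passed for 9 of the 10 (6.86% of all genes were lower), at -4.27 ± 0.46 for Acta2 (adjusted p = 1.8e-07) and -5.30 ± 0.57 for Actg2 (adjusted p = 2e-07), and missed for Des (-2.59 ± 1.38, adjusted p = 0.22).

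In ESCs, EBs of day 4 and RA EBs none of the 10 genes was called by edgeR, with 0%, 0.563% and 2.34% of all genes called in either direction; at an unadjusted p under 0.05 the only one was Myl9 in RA EBs (0.54 ± 0.26). DESeq2 and limma called none there either. At EB day 4 the intervals were narrow for the abundant genes, from -0.80 to 0.39 for Acta2 and from -0.56 to 0.48 for Tagln on the log2 scale. In ESCs they were as narrow for Smtn (-0.15 to 0.46) and Des (-0.54 to 0.59), which were abundant there, and wide for Acta2 (-2.63 to 2.63), for which only a large difference would have been detectable at this depth.

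Pooled over stages, whose signs differed, fewer genes were called. Over all 8 stages none of the 10 was called by edgeR (2.73% of all genes were), DESeq2 or limma, and at an unadjusted p under 0.05 only Smtn was (0.19 ± 0.09). Over global EBs of days 6 to 20, Actg2 (3.07 ± 0.56, adjusted p = 0.00053) and Smtn (0.44 ± 0.10, adjusted p = 0.0051) were higher, against 9.79% of all genes. With day 6 left out, 8 of the 10 passed, and with day 12 or day 20 left out, 1. Actg2 was not called with DESeq2 (1.14, adjusted p = 0.34) or without day 20, and Smtn not without day 12. In the neural branch none passed (0.0064% of all genes did), by edgeR, DESeq2 or limma, and 1 had an unadjusted p under 0.05, Actg2 (-2.04 ± 0.69, adjusted p = 0.29). Over ESCs and EBs of day 4 together none passed (0% of all genes) by any of these tools, and none had an unadjusted p under 0.05. The difference between the branches was called for Actg2 alone, at 5.11 ± 0.88 (adjusted p = 0.00099; 5.26% of all genes were higher). With NPCs left out it was -0.05 with an adjusted p of 0.97.

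The compounds share phenol rings that are bridged by an isopropylidene group in BPA, a methylene group in BPF and a sulfonyl group in BPS. At the matched dose, over EBs of days 6 to 20, the 3 pairs of compounds were compared, with p adjusted over genes and pairs. None of the 10 genes differed in any pair by edgeR, where 0.0192% of all genes did between BPA and BPF, 0.115% between BPA and BPS and 0.0064% between BPF and BPS, and DESeq2 and limma called none of the 10 either. No unadjusted p of edgeR was under 0.05, and Des came nearest, between BPA and BPS (-0.54 ± 0.29, adjusted p = 0.90, 95% interval -1.14 to 0.05). The intervals do not show that the compounds acted alike. For Acta2 they ran from -1.54 to 0.78 between BPA and BPF, from -1.30 to 1.04 between BPA and BPS and from -0.92 to 1.42 between BPF and BPS, and for Smtn, the most precise, from -0.40 to 0.11, from -0.44 to 0.07 and from -0.30 to 0.22. Set against DMSO over these days, with the same DMSO libraries each time, Actg2 was higher with BPA (2.90 ± 0.61, adjusted p = 0.0057), BPF (3.29 ± 0.60, adjusted p = 0.00084) and BPS (3.02 ± 0.61, adjusted p = 0.0015), and Smtn with BPF (0.47 ± 0.13, adjusted p = 0.013) and BPS (0.51 ± 0.13, adjusted p = 0.0072). Of all genes 3.10%, 8.14% and 9.12% were higher with BPA, BPF and BPS. The call of Actg2 with BPA was lost with DESeq2 (0.79, adjusted p = 0.77), and with limma on log2(FPKM + 1) (1.52, adjusted p = 0.17) and on log2(FPKM + 0.1). That call was also lost without the BPF libraries and without day 12 or day 20. With BPF and BPS the call of Actg2 was lost with DESeq2 (adjusted p = 0.36 and 0.43), with limma on log2(FPKM + 0.1) and without day 20. With BPS, limma on log2(FPKM + 1) left 1 call among the 10 genes, that of Smtn, so Actg2 was lost there too. Smtn was called by each of these tools with BPF and BPS, but with neither compound without day 12. Smtn with BPA was at 0.33 ± 0.13 (adjusted p = 0.14), which does not differ from the other compounds by the test above.

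Regulators of the contractile genes were described from a list of 22 genes around SRF and myocardin. The list was not split into genes that raise and genes that lower contractile gene expression, so its counts do not give the activity of SRF or myocardin. At EB day 9, 9 of them were higher with the bisphenols and none lower (4.01% of all genes were higher). At EB day 12, 13 were higher and none lower (10.1% of all genes were higher), and at EB day 20, 5 and none (9.14%). In NPCs none was higher and 1 lower, Prrx1 (-0.91 ± 0.25, adjusted p = 0.048), a share near the 1.94% of all genes that were lower there. Foxf2, a forkhead factor of gut mesenchyme, was at 15.3, 18.1 and 18.2 FPKM with BPA, BPF and BPS at EB day 12, against 0.71 FPKM with DMSO (4.55 ± 0.36, adjusted p = 2.5e-09). Foxf1, its relative, was at 3.25, 3.92 and 5.4 FPKM with the bisphenols, against 0.32 FPKM with DMSO (3.63 ± 0.54, adjusted p = 2.3e-05). Myocd, which encodes myocardin, was low throughout, at 0.51, 0.72 and 1.22 FPKM with the bisphenols, against 0.04 FPKM with DMSO, or 129 counts against 2, a ratio of 21.4 with a counting interval of 5.81 to 179. The heart and mesoderm factor Hand1 was at 3.91, 8.09 and 13.5 FPKM with the bisphenols, against 0.57 FPKM with DMSO (3.83 ± 0.99, adjusted p = 0.0071). Foxf2 (2.40 ± 0.31, adjusted p = 1.7e-05) and Myocd (2.86 ± 0.58, adjusted p = 0.0021) were also higher at EB day 9. Of the 10 contractile genes only Mylk was called at that day, and it was lower. Any link between these regulators and the contractile genes was not tested. At EB day 6, when Acta2 was lower with the bisphenols, none of the 22 was called; Myocd had 69 counts over the bisphenol libraries against 3 with DMSO, a ratio of 7.59 with a counting interval of 2.49 to 37.7 (adjusted p = 0.058).

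A further list held 25 other genes of the actomyosin filaments and dense bodies. At EB day 12, 18 of them were higher, 1 was lower and 6 were not called, where 10.1% of all genes were higher and 8.79% lower. At EB day 20 the numbers were again 18, 1 and 6, where 9.14% of all genes were higher and 10.5% lower. In NPCs 8 were lower and none higher, where 1.94% of all genes were lower. The gene that was lower at both EB stages was Synm, which encodes the intermediate filament protein synemin (-0.99 ± 0.19 at day 12 and -0.63 ± 0.18 at day 20, adjusted p = 0.00061 and 0.016). Tpm1 (tropomyosin, which lies along actin filaments) was at 279, 292 and 260 FPKM with BPA, BPF and BPS at EB day 12, against 56.7 FPKM with DMSO (2.28 ± 0.18, adjusted p = 2e-09). In NPCs it was at 106, 94.7 and 124 FPKM with the bisphenols, against 214 FPKM with DMSO (-0.99 ± 0.15, adjusted p = 0.00015). Synpo2, an actin-bundling protein of dense bodies, was at 1.14, 2.02 and 2.82 FPKM with the bisphenols at EB day 12, against 0.19 FPKM with DMSO (3.32 ± 0.57, adjusted p = 0.00015). Fhl2 (2.48 ± 0.31) and Lpp (1.36 ± 0.26) were also higher at that stage, and Svil (1.88 ± 0.21) and Tpm2 (1.64 ± 0.19) at EB day 20. Myh9, the non-muscle myosin heavy chain, and Actn1, an actinin that crosslinks actin, were both lower in NPCs (-0.95 ± 0.20 and -0.95 ± 0.15), and neither is specific to muscle.

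A list of 25 genes covered light chain phosphorylation, its signals and relaxation, and also held genes outside that pathway, such as Itga8 and Aoc3. Of the 25, 8 were higher and 2 lower at EB day 12, where 10.1% of all genes were higher and 8.79% lower. The lower ones were thus at the share over all genes. At EB day 20, 5 were higher and none lower (9.14% of all genes were higher), and in NPCs none and 3 (1.94% were lower). Those lower at EB day 12 were Hspb6, a small heat shock protein (-0.52 ± 0.16, adjusted p = 0.026), and Aoc3, an amine oxidase, which rested on 1 count over the bisphenol libraries against 4 with DMSO, a ratio of 0.083 with a counting interval of 0.00169 to 0.839. Synm, Prrx1 and Hspb6 are named because they were lower, after their values were seen. Itga8, an integrin subunit of smooth muscle and mesenchyme, was at 12.3, 11 and 11.4 FPKM with BPA, BPF and BPS at EB day 20, against 0.68 FPKM with DMSO (4.03 ± 0.28, adjusted p = 9.5e-11). Ednra, the endothelin receptor of smooth muscle, was at 11.9, 10.6 and 8.94 FPKM with the bisphenols at that stage, against 2.31 FPKM with DMSO (2.12 ± 0.27, adjusted p = 2.3e-06). Both were lower in NPCs, Itga8 by -0.97 ± 0.23 and Ednra by -0.99 ± 0.21 (adjusted p = 0.02 and 0.0086). Pde5a, which breaks down cyclic GMP, was higher at EB day 20 (1.88 ± 0.16, adjusted p = 3.1e-09), as was Gucy1a1, a subunit of the receptor for nitric oxide that makes cyclic GMP, at EB day 12 (2.14 ± 0.49, adjusted p = 0.0031).

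Markers of other cell types moved between the same libraries, and their part in these differences was not tested. The summed level of 13 fibroblast genes was 598 to 623 FPKM with the bisphenols and 146 FPKM with DMSO at EB day 12, 1540 to 1770 FPKM and 404 FPKM at EB day 20, and 247 to 281 FPKM and 531 FPKM in NPCs. Thus it lay above DMSO where the contractile genes did at days 12 and 20, and below it in NPCs. At EB day 6 it was 114 to 133 FPKM with the bisphenols and 189 FPKM with DMSO. The 10 pericyte genes summed to 116 to 156 FPKM and 85.6 FPKM at EB day 12 and to 109 to 116 FPKM and 37 FPKM at EB day 20, with Higd1b at 0 in the libraries of both stages. In NPCs they summed to 21.1 to 25.4 FPKM with the bisphenols and 29.8 FPKM with DMSO. The 22 striated muscle genes summed to 98.2, 272 and 606 FPKM with BPA, BPF and BPS at EB day 12, against 21.3 FPKM with DMSO. The order of compounds was unlike that of Acta2 at this stage. At EB day 20 that sum was 89.2, 218 and 343 FPKM, against 62.5 FPKM with DMSO, in the same order of compounds as Acta2. In NPCs it was 11.8 to 12.9 FPKM with the bisphenols and 12 FPKM with DMSO, with Myl2, Pln, Myog and Ckm at 0. Of the 22 genes 4 reached 1 FPKM in NPCs, and the median log2 change of those tested was -0.39 there, with none called. At EB day 6 the striated sum was 191 to 279 FPKM with the bisphenols and 301 FPKM with DMSO. The 12 endothelial genes summed to 31 to 60.6 FPKM and 14.7 FPKM at EB day 12, and to 31 to 44 FPKM and 28 FPKM at EB day 20. The 12 neuronal genes summed to 768 to 937 FPKM with the bisphenols and 1060 FPKM with DMSO at EB day 12, to 1680 to 1990 FPKM and 2130 FPKM at EB day 20, and to 3300 to 3730 FPKM and 3190 FPKM in NPCs. Thus the neuronal sum lay below DMSO at EB days 12 and 20 and above it in NPCs.

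**Figure D5:**
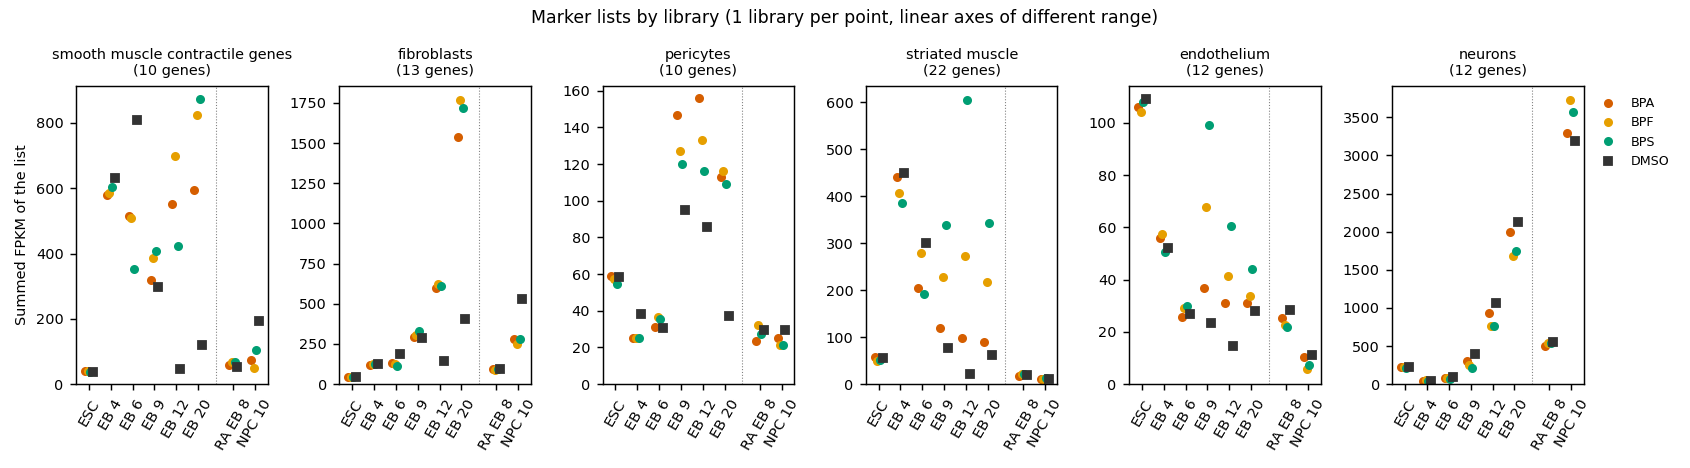
Summed FPKM of the 10 contractile genes and of the marker lists of other cell types in each library, on linear axes of different range, with colours for treatment. The fibroblast sum lies above DMSO in the bisphenol libraries at EB days 12 and 20 and below it in NPCs.

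Among themselves the 10 genes were compared by how their levels ran over the 32 libraries, which share cell line, stage and depth, so that Pearson's r of log2(FPKM + 1) is a description. The highest values were 0.94 for Acta2 and Tagln, 0.93 for Cnn1 and Lmod1, 0.92 for Cnn1 and Tagln and 0.91 for Tagln and Myl9. Actg2 had an r of 0.80 with Myh11 and 0.77 with Mylk, but 0.11 with Cnn1 and -0.08 with Des. Smtn had an r of 0.80 with Des and 0.20 with Acta2. Among 13226 other genes averaging at least 1 FPKM, those closest to the mean of the 10 were Fkbp10 and Laptm4a (0.93 each), Mmp2, Tpm2, Cthrc1, Itgb1 and Fosl2 (0.92 each) and the cardiac actin Actc1 (0.90). Actc1 was at 24.5, 64.7 and 139 FPKM with BPA, BPF and BPS at EB day 12, against 3.26 FPKM with DMSO. Mmp2, a matrix metalloproteinase, was at 34.4, 38.8 and 34.8 FPKM with the bisphenols, against 6.72 FPKM with DMSO, at that stage.

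By position, the genes lie apart in the genome. On GRCm38, Acta2 (Entrez 11475) spans 34240336 to 34255585 of chromosome 19, Actg2 (11468) 83512909 to 83536251 of chromosome 6, Tagln (21345) 45929628 to 45936058 of chromosome 9 and Myl9 (98932) 156775408 to 156781657 of chromosome 2. Cnn1 shares chromosome 9 with Tagln, Des and Lmod1 are both on chromosome 1, Myh11 and Mylk both on chromosome 16, and Smtn is on chromosome 11. The authors' counts for Mylk rested on 1 transcript of 7809 bases, so that shorter products of that locus were not counted separately.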

How the data were processed

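RNA from 32 libraries was sequenced, 1 per stage and treatment. The authors deposited expected counts per gene, without normalisation, and deposited FPKM beside them, per the file headers. Tools in the submitters' processing notes are RSEM, HISAT and Bowtie2, on build mm10; their roles and versions are not given in the sources used here. Unlisted genes, those under 0.01 FPKM, count as 0. Of 20612 genes, 20551 matched RefSeq GRCm38.p6 by identifier, 9 by transcript and 52 not at all.

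Expected counts were rounded and analysed with edgeR 4.0.16 in R 4.3.3, for 15632 genes with 1 CPM or more in at least 4 libraries, with TMM factors of 0.923 to 1.143. Stages and the effect over 8 stages came from a quasi-likelihood model of stage plus treatment (21 residual degrees of freedom), branches and compounds from stage plus treatment within each phase (15), and single stages from stage by class, bisphenol or DMSO (16). Adjusted p is by Benjamini-Hochberg over all genes. Intervals are at 95% confidence, and counting intervals cover counting error only. The edgeR test was tried on simulated counts for EB day 9 against day 6. For the bisphenols it was tried over 8 stages, over global EBs and at EB day 12. The other comparisons and tools were not tried in this way. Alternatives were DESeq2 1.42.0, limma 3.58.1 on log2(FPKM + 1) and log2(FPKM + 0.1), other scaling and filters, and leaving out a treatment or a stage.

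The 10 genes and the lists were chosen with earlier results of these data known. All 10 are named; from each pathway list, up to 4 called members with the largest change, and beyond these a few named after their values were seen; and the 8 genes with the highest r to the 10. Protein sequences and promoters of Actg2, Tagln and Myh11 were not used here.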

Additional observations from a re-analysis of the deposited data

Results flagged for a closer look

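At 6 of 80 groups of 4 libraries (10 genes at 8 stages), 1 library lay apart from the other three by a gap that, divided by the range, was above Dixon's 95% critical value. Chance flags about 1 in 20 such groups. They were the BPF library for Actg2 in ESCs (0.07 FPKM, with the others at 0), the DMSO library for Actg2 in RA EBs (0 FPKM), the DMSO library for Myl9 at EB day 4 (68.8 FPKM), the DMSO library for Mylk at EB day 20 (0.74 FPKM), the DMSO library for Smtn in ESCs (18 FPKM) and the BPF library for Smtn at EB day 6 (24.3 FPKM). Of the 6, 4 were DMSO libraries, and both Actg2 values rest on 1 count or none.

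The bisphenol effect in NPCs was below that at EB day 20 for 9 genes by the test of the difference itself. On the log2 scale the differences were -4.27 for Acta2, -5.30 for Actg2, -4.89 for Cnn1, -4.42 for Tagln, -2.80 for Myl9, -5.20 for Myh11, -4.08 for Mylk, -3.77 for Lmod1 and -1.23 for Smtn. The effect at EB day 12 was above that at EB day 6 for 8 genes. These differences were 5.70 for Acta2, 6.54 for Actg2, 7.63 for Cnn1, 5.03 for Tagln, 4.19 for Myl9, 3.76 for Myh11, 1.62 for Mylk and 3.09 for Lmod1, where the values of Cnn1 and Myh11 rest on 1 and 2 counts in the DMSO library of EB day 12. Between the branches, global minus neural, only Actg2 differed, by 5.11. The composition of the single DMSO libraries behind these differences was not tested.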

How the results depend on the processing

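With no replicate of any treatment at a stage, 1 DMSO library carries each single-stage comparison, and leaving it out leaves none. No paired analysis was possible because the labels carry no replicate numbers shared between groups. Of the 10 genes, the number called stayed within 1.5 times under every alternative run for EB day 4 against ESCs (6 to 7), EB day 20 against day 12 (2 to 4), RA EBs against EB day 4 (7 to 9), NPCs against EBs of days 9 and 12 (7 to 9), the bisphenols at EB day 12 (8 to 9) and EB day 20 (10 in each), and the effect in NPCs against EB day 20 (9 to 10) and at EB day 12 against day 6 (7 to 9). It was 0 under each alternative in ESCs, EB day 4, both together, RA EBs, the neural branch and the 3 pairs of compounds. The numbers that moved follow, and the cause was not tested. With DESeq2 they were 4 at EB day 6 against day 4 and 1 at day 9 against day 6, and for treatments 1 over global EBs, 0 with BPA, 1 with BPF, 1 with BPS, 1 at EB day 6 and 0 at EB day 9. With limma on log2(FPKM + 1) they were 1, 1, 6, 0, 4, 1 and 0 for EB day 6 against day 4, EB day 9 against day 6, global EBs, BPA, BPF, BPS and EB day 6, and 4 for RA EBs against EBs of days 6 and 9. With limma on log2(FPKM + 0.1) they were 1, 1, 6, 0, 1 and 0 for EB day 6 against day 4, EB day 9 against day 6, global EBs, BPA, BPS and EB day 6, and 0 for EB day 9. Leaving out 1 treatment or stage gave 1 to 3 at EB day 6 against day 4 and at day 9 against day 6, 1 to 2 at day 12 against day 9, 4 to 8 for NPCs against RA EBs, 0 to 1 over 8 stages, 1 to 8 over global EBs, 0 to 6 between branches, 0 to 7 with BPA, 1 to 8 with BPF, 0 to 9 with BPS, 0 to 3 at EB day 6, 0 to 1 at EB day 9 and 0 to 5 in NPCs; in the last the low end came without BPF. For the difference of branches in Actg2, leaving out 1 treatment or stage gave -0.05 to 5.63, and the low end, reversed in sign, came without NPCs. Over all genes, limma on log2(FPKM + 1) called fewer than edgeR at every stage step, for example 2371 against 4376 at EB day 4 against ESCs, and 3 against 427 for the bisphenols over 8 stages. For single genes, 3520 values kept their side of the threshold, and 75 passed it only in the alternative. A further 84 passed only in the main analysis, and 1 was reversed in sign. Direction was compared only for values called in the main analysis.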
